A study of Mus musculus with 19 samples.

Results

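The genes described here code for 10 nuclear proteins known to bring MTG corepressors to DNA: Tcf3, Tcf4, Tcf12, Gfi1, Gfi1b, Prdm14, Zbtb16, Bcl6, Zbtb33 and Ldb1. They are 10 of 21883 protein-coding genes of the RefSeq annotation, and each was examined for CBFA2T2 peaks that lay inside it or within 10 kb of its span on mm10. In the H3.3WT list 5 of 6920 peaks met this rule, and in the H3.3K27M list 8 of 8272 did. The peaks show where DNA was recovered with the CBFA2T2 antibody at the genes that encode these partners. They do not measure binding by the partner proteins or expression of their genes.

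MTG proteins (CBFA2T2, CBFA2T3 and RUNX1T1, also called the ETO family) do not read a DNA sequence on their own. They are brought to chromatin by transcription factors and in turn hold NCoR, SIN3 and histone deacetylases. The partners fall into several classes. TCF3 (E2A), TCF4 (E2-2) and TCF12 (HEB) are the E proteins, broadly expressed basic helix-loop-helix factors that bind E-boxes and contact MTG proteins through an activation domain. GFI1 and GFI1B are zinc finger repressors with a SNAG domain, PRDM14 works with CBFA2T2 in pluripotent and germ cells, and ZBTB16 (PLZF), BCL6 and ZBTB33 (Kaiso) are zinc finger repressors with a BTB domain. LDB1 is an adaptor of LIM-domain complexes and has no DNA-binding domain itself, so its gene fits the name of the set only through the complexes it joins.

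The peaks came from CBFA2T2 ChIP-seq, sequencing of DNA fragments recovered with an antibody, in NE-4C, a mouse neural stem cell line that lacks p53. Both groups had H3f3a, which encodes the replication-independent histone H3.3, knocked out, and carried a stably expressed HA-tagged H3.3 in its place. In one group this H3.3 was wild-type (H3.3WT) and in the other it was H3.3K27M, with methionine at the position of lysine 27. The labels do not say whether either line is a single clone, and they name no deletion of H3f3b, the other H3.3 gene. Of 19 samples in the series, 2 had peak lists used here, 1 per genotype. The CBFA2T2 ChIP of the H3.3WT Cbfa2t2 Knockout cells was not analysed here, so signal that remains without CBFA2T2 was not checked. With 1 library per genotype there is no replicate error and no test between genotypes. The depth of both libraries is unknown. Peak lists hold no expression values, so the neural stem cell label could not be checked against marker genes.

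CBFA2T2 peaks were found at some of these genes and were absent from 5 of them in both lists. In H3.3WT 4 of 10 genes had a peak inside or within 10 kb (Tcf3, Tcf12, Zbtb16 and Ldb1), where 36.1% of all protein-coding genes had one. In H3.3K27M 5 of 10 did (the same 4 and Bcl6), where 40.7% of all protein-coding genes had one. Exact 95% binomial intervals around these counts, which cover counting error only, ran from 12.2 to 73.8% and from 18.7 to 81.3% and are too wide to place these genes above, at or below the background. Peaks that touched the gene span itself were found at the same 4 and 5 genes, where 27.9% (H3.3WT) and 32.6% (H3.3K27M) of all protein-coding genes had one. Tcf4, Gfi1, Gfi1b, Prdm14 and Zbtb33 had no peak in either list, a state shared with 55.7% of protein-coding genes. A peak in both lists was found for 4 of the 10, where it was found for 32.5% of protein-coding genes.

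The 250 bases before the transcript start are shown for Tcf3, Tcf12, Bcl6 and Ldb1, whose starts carried a peak. They are also shown for Zbtb33, whose start is as rich in CpG but had none. No start sequence was used for Zbtb16, which had a peak at its annotated end with the higher coordinate in both lists. Sequences are from RefSeq (GRCm38.p6, the assembly of mm10), run 5′ to 3′ in the direction of transcription, and end at the base before the start. Capitals mark bases that lay inside a peak of both lists.
Tcf3 (chr10:80433636-80433885, minus strand): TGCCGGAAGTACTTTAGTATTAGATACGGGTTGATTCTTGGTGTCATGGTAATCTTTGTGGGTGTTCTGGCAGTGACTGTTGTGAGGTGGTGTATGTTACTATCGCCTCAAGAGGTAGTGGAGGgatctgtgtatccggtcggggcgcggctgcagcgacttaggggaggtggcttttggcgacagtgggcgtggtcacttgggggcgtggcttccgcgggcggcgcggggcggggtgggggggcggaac
Tcf12 (chr9:72111820-72112069, minus strand): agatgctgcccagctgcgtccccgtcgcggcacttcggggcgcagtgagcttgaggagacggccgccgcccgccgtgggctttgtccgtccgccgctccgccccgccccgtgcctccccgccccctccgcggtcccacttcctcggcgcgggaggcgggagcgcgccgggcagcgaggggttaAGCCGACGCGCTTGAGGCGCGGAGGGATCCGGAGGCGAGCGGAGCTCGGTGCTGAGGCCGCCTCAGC
Bcl6 (chr16:23988853-23989102, minus strand): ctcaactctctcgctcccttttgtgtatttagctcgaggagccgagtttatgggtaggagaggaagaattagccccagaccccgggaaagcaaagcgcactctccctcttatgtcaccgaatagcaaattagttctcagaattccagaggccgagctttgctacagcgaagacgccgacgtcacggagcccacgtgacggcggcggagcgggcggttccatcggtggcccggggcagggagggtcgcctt
Ldb1 (chr19:46045312-46045561, minus strand): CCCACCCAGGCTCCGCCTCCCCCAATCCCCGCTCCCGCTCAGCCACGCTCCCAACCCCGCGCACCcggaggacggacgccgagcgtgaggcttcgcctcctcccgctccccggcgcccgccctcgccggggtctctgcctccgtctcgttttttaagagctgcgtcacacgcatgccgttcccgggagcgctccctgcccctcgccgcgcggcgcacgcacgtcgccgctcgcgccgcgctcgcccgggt
Zbtb33 (chrX:38189543-38189792, plus strand): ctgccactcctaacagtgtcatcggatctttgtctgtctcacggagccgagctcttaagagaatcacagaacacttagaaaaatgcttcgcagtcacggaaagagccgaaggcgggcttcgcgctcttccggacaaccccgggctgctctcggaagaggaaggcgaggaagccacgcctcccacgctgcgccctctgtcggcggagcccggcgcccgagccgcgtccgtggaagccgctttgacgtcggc
In the Tcf3 window 250 bases lay in the H3.3WT peak and 124 in that of H3.3K27M, so the capitals are the part farther from the start. The Tcf12 window had 245 bases in the H3.3WT peak and 67 in the H3.3K27M peak, the latter next to the start. At Ldb1 the order was the opposite, with 65 bases in the H3.3WT peak and 250 in the H3.3K27M peak. The Bcl6 window lay wholly in a peak of H3.3K27M and outside the peaks of H3.3WT, and is therefore in lower case throughout, as is that of Zbtb33.

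Among the E protein genes, Tcf3 carried in H3.3WT the strongest peak at the start of any of the 10 genes. Its peak stood lower in the H3.3K27M list, where the peak at the Bcl6 start was stronger (5.15 against 4.22 fold). Tcf3 spans 24.4 kb (chromosome 10, 80409541 to 80433976). Its peak in H3.3WT ran from 80433352 to 80434182 with a fold of 10.4, the caller's ratio of ChIP signal at the summit over local background, and −log10 q of 23.0. In H3.3K27M the peak ran from 80433762 to 80434214 with a fold of 4.22 and −log10 q of 7.32. The H3.3WT peak was in the upper part of its list (percentile 80.7 by fold), while that of H3.3K27M was in the lower part (percentile 22.3). Among 5511 overlapping peak pairs of the lists, ranked by H3.3WT over H3.3K27M fold, Tcf3 stood at percentile 99.0. Whether replicate libraries would show the same order cannot be known from 1 library each. The summits lay 284 bp (H3.3WT) and 346 bp (H3.3K27M) upstream of the RefSeq start used for the sequence above, next to the outer edge of the annotated gene.

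Tcf12, a gene of 267.6 kb (chromosome 9, 71844252 to 72111893), had 1 peak in each list, at its outermost start. The fold was 5.74 in H3.3WT (72111251 to 72112064, −log10 q of 8.89). It was 3.60 in H3.3K27M (72111539 to 72111886, −log10 q of 4.75). Both values were under the median fold of their lists, 6.21 and 5.63, and the H3.3K27M peak stood at percentile 9.9. The pair was at percentile 87.8 of the H3.3WT over H3.3K27M ranking, so both marked E protein genes lay on the H3.3WT side of it. Summits were 37 and 61 bp downstream of the start, 24 bp apart. RefSeq gives Tcf12 2 further starts. The one 618 bp inside the first had 201 of its 250 upstream bases within the H3.3WT peak and 0 within the H3.3K27M peak. The internal start at 71896096, which lacks CpG in these bases, had no peak in either list.

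Tcf4, the third E protein gene and the longest of the set at 344.5 kb (chromosome 18, 69343429 to 69687967), had no peak. It also stood far from any. The nearest H3.3WT peak was 1042.8 kb away, at Fam210a and Rnmt, and the nearest H3.3K27M peak 880.2 kb away, at Mbd2. These distances exceeded or equalled those of 93.7% and 93.3% of protein-coding genes. Tcf4, Tcf12 and Zbtb16 are long genes, and genes of at least 150 kb had a peak inside or within 10 kb in 32.7% of cases in H3.3WT and 39.9% in H3.3K27M.

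**Figure D1:**
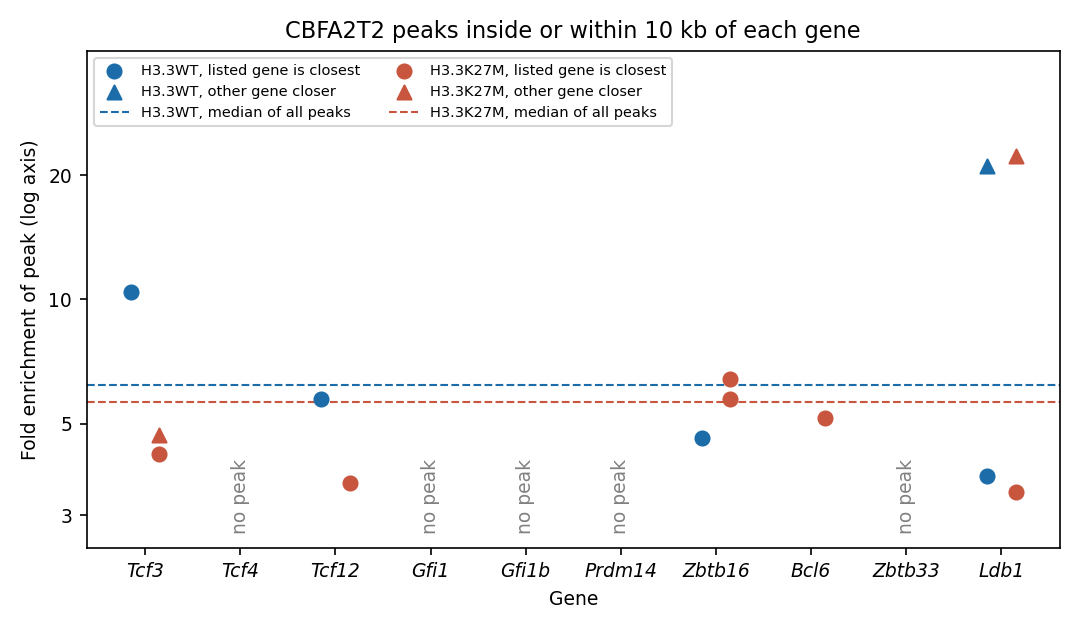
Fold enrichment (log axis) of every CBFA2T2 peak inside or within 10 kb of the 10 genes, in H3.3WT (blue) and H3.3K27M (red), with 1 library each and no error bars; circles are peaks for which the gene is the closest protein-coding gene, triangles are peaks closer to another gene, and dashed lines are the medians of all peaks in each list. The Tcf3 circle of H3.3WT at 10.4 fold is the highest circle, the pair above 20 fold at Ldb1 belongs to its neighbour Pprc1, and 5 genes have no point.

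Of the BTB zinc finger genes, Zbtb16 and Bcl6 had peaks and Zbtb33 had none. Zbtb16, which encodes a repressor of progenitor and lymphoid differentiation genes, spans 184.4 kb (chromosome 9, 48651797 to 48836225). Both lists had a peak at its end with the higher coordinate. In H3.3WT it ran from 48836015 to 48836397 with a fold of 4.61 and −log10 q of 5.17. In H3.3K27M it ran from 48836147 to 48836433 with a fold of 5.73 and −log10 q of 12.4. This pair stood at percentile 25 of the H3.3WT over H3.3K27M ranking, the opposite side from the E protein genes, with summits 21 bp apart. The H3.3K27M list held another peak inside Zbtb16, at 48675259 to 48675600 (6.41 fold, −log10 q of 8.26), which overlapped no H3.3WT peak. It lay within 1 kb of Gm32280, a protein-coding model nested in Zbtb16.

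Bcl6, the gene of a repressor best known from germinal centre B cells, was the one gene of the set with a peak in H3.3K27M and not in H3.3WT. This state was found for 8.2% of protein-coding genes, and the converse for 3.6%. The peak covered the outer RefSeq start (chromosome 16, 23988660 to 23989107), with its summit 3 bp upstream of it, a fold of 5.15 and −log10 q of 8.18. The lncRNA gene Gm31527 overlaps this place, so the peak lies at both genes. The nearest H3.3WT peak was 404.7 kb away, inside Lpp. With −log10 q at percentile 44.7 of its list, the Bcl6 peak was of middling strength. The inner start of Bcl6, at 23981283, had no peak in either list.

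Zbtb33 (chromosome X, 38189793 to 38197046) codes for Kaiso, which binds methylated CpG and the sequence TCCTGCNA. Its nearest peaks lay 367.5 kb (H3.3WT) and 367.4 kb (H3.3K27M) away, both at Cul4b. Of the 966 protein-coding genes of chromosome X, 17.7% had a peak inside or within 10 kb (H3.3WT), or 19.2% (H3.3K27M), below the shares for all chromosomes. The neighbour Tmem255a, which overlaps Zbtb33, had no peak either.

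**Figure D2:**
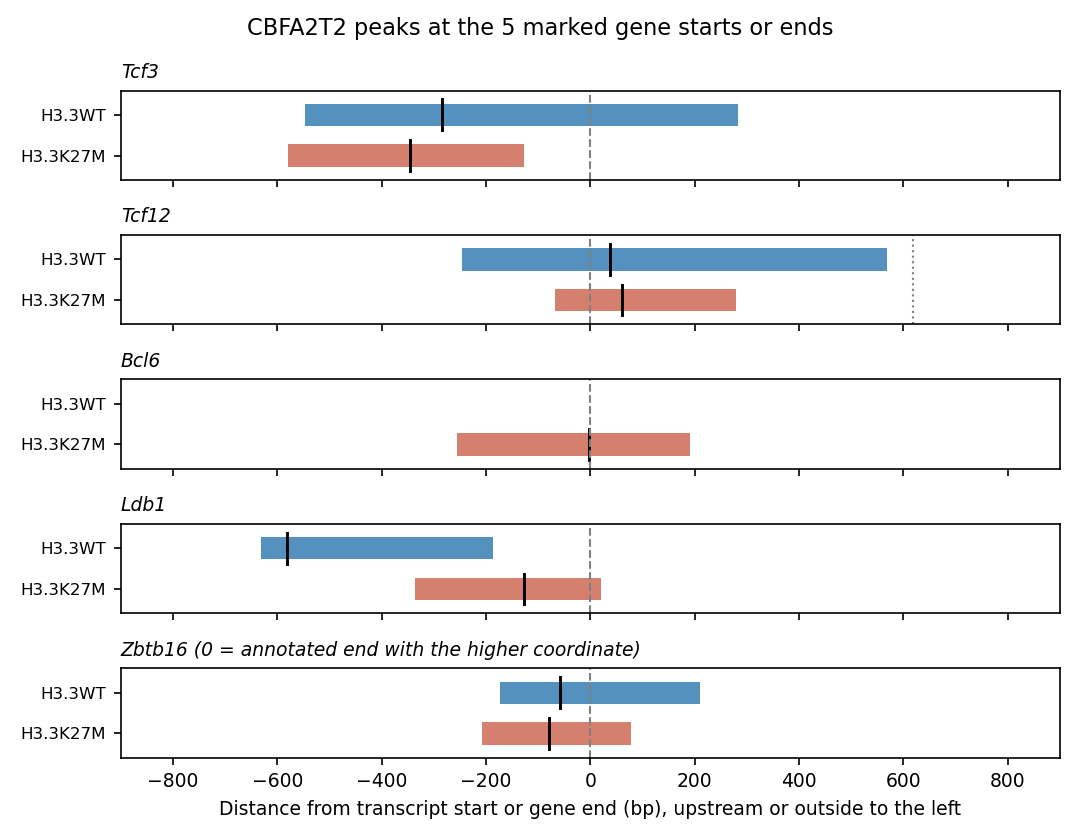
Peaks of H3.3WT (blue) and H3.3K27M (red) drawn as bars against the distance in bp from the transcript start (for Zbtb16, from the annotated end with the higher coordinate), with upstream or outside to the left, a black tick at each summit, and a dotted line at a further start of Tcf12. Bars of the lists overlap at all of these genes except Bcl6, which has a bar in H3.3K27M alone, and the Ldb1 summits are the farthest apart.

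Ldb1, the gene of the LIM-complex adaptor, had weak peaks of its own and a strong one beside it. Ldb1 spans 16.6 kb (chromosome 19, 46031525 to 46048145), and its outermost RefSeq start in the promoter table is at 46045311. The H3.3WT peak there ran from 46045497 to 46045942 with a fold of 3.73 and −log10 q of 3.34. The H3.3K27M peak ran from 46045290 to 46045646 with a fold of 3.42 and −log10 q of 3.69. By fold these were the weakest peaks of the set in H3.3WT (percentile 7.4) and in H3.3K27M (percentile 6.8). The pair stood at percentile 56.1 of the H3.3WT over H3.3K27M ranking. They overlapped by 150 bp, but their summits were 455 bp apart, a difference at percentile 98.3 of all pairs, whose median was 44 bp. The summits lay 581 bp (H3.3WT) and 126 bp (H3.3K27M) upstream of the start. The overlap therefore places both peaks near the start without showing a common summit.

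The highest peaks of the set by fold lay 7951 bp (H3.3WT) and 7982 bp (H3.3K27M) beyond the annotated edge of Ldb1 with the higher coordinate. Their folds were 21.1 (46056096 to 46057200) and 22.2 (46056127 to 46057371), and their summits were 2 bp apart. They overlapped the start coordinate of Pprc1, a coactivator gene of mitochondrial biogenesis, and are counted at Ldb1 only because of the 10 kb window. A peak near Tcf3 was of the same kind. In H3.3K27M it covered the annotated edge with the higher coordinate of Mbd3, a NuRD subunit gene. It had 4.69 fold and lay 9673 bp from Tcf3, just inside the window. Uqcr11, a respiratory complex III gene, lay between Tcf3 and this peak. The H3.3WT peak at Mbd3 (7.35 fold) overlapped that of H3.3K27M but lay 10091 bp from Tcf3, just outside. With each peak given only to its closest protein-coding gene, again 4 and 5 of the 10 genes had a peak, against 29.3% and 33.9% of all protein-coding genes.

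Peaks of both lists were then compared by overlap. All 5 peaks of H3.3WT had a partner in the other list (exact 95% interval 47.8 to 100%), against 79.4% of all H3.3WT peaks. Of the 8 peaks of H3.3K27M, 6 had one (34.9 to 96.8%), against 66.3% of all. The exceptions were the peak at the Bcl6 start and the internal one of Zbtb16. Without the peaks closer to Pprc1 and Mbd3, it was 4 of 4 and 4 of 6. With both lists cut to peaks of at least 5 fold, 1 of 3 (H3.3WT) and 1 of 4 (H3.3K27M) had a partner, the pair at Pprc1. At this cut the H3.3WT peaks of Tcf3 and Tcf12 lost their partners, which had 4.22 and 3.60 fold in H3.3K27M. The share of all peaks with a partner at this cut was not computed, and 79.4% and 66.3% are for the uncut lists. The counts at this cut therefore cannot be set against all peaks. Peaks touching the genes themselves were modest. The strongest such peak per gene by −log10 q had a median fold of 5.17 over the 4 genes in H3.3WT and 4.22 over the 5 genes in H3.3K27M. Over all protein-coding genes touched by a peak the medians were 6.83 and 6.22. In H3.3WT 3 of the 4 genes were under this median, all but Tcf3, and in H3.3K27M all 5 were.

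**Figure D3:**
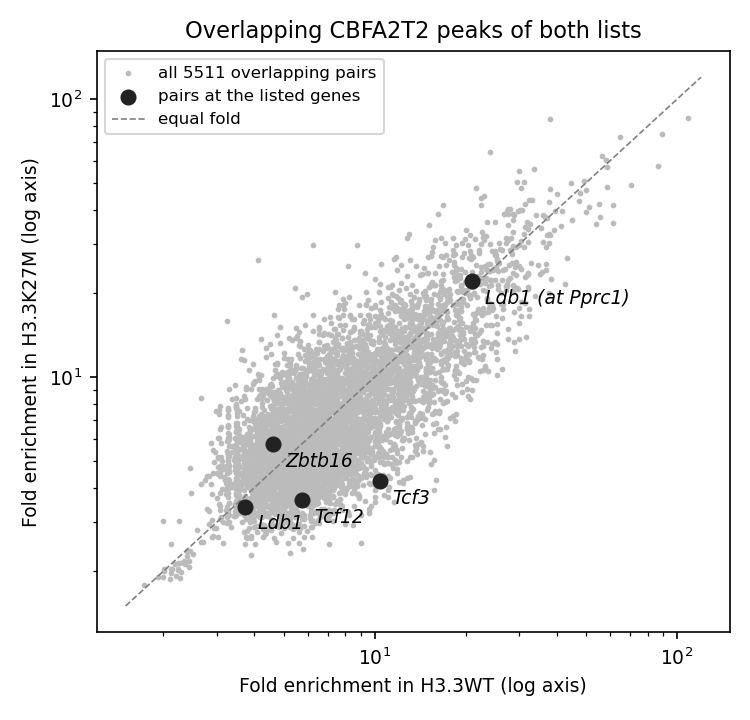
Fold in H3.3WT (x axis) against fold in H3.3K27M (y axis), both log axes, for all 5511 overlapping peak pairs (grey) and those counted at the listed genes (black), with a dashed line of equal fold. Tcf3 (10.4 and 4.22) lies at the lower edge of the cloud and Tcf12 (5.74 and 3.60) below the line, while Zbtb16 (4.61 and 5.73) lies above it.

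The genes without a peak differed in how far they were from one. Gfi1b, the repressor gene of erythroid and megakaryocytic cells (chromosome 2, 28609450 to 28621982), had its nearest H3.3WT peak 19.0 kb away at Tsc1 (8.07 fold) and its nearest H3.3K27M peak 26.2 kb away at Gtf3c5 (7.21 fold). Gfi1, its relative in blood stem cells and lymphoid cells (chromosome 5, 107716655 to 107725805), was 174.6 kb from an H3.3WT peak at Rpl5 and 142.9 kb from an H3.3K27M peak at Evi5. Prdm14 (chromosome 1, 13113428 to 13127163) was 298.2 kb from an H3.3WT peak in Sulf1 and 245.5 kb from an H3.3K27M peak in Ncoa2. Over all protein-coding genes the median distance to a peak was 39.6 kb in H3.3WT and 27.9 kb in H3.3K27M. Only Gfi1b, of the 5 genes with no peak in either list, was nearer than this median, in both lists. The genes at these distant peaks were named after their values were seen.

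Where a promoter sequence was used, the peaks sat at CpG-rich starts. RefSeq promoter windows of 250 bases were at hand for 7 of the 10 genes, 13 windows in all. Those of Tcf4, Prdm14 and Zbtb16 were not used here. The observed over expected CpG ratio was 1.00 at Tcf3, 1.03 at the outermost Tcf12 start, 0.99 at the outer Bcl6 start and 1.21 at Ldb1. Zbtb33, with no peak, had 1.11. The Gfi1 windows had 0.44 and 0.59 and that of Gfi1b 0.42. Further starts without a peak were the inner Bcl6 start at 0.70, the inner Ldb1 starts at 0.23 and 0.78, and the internal Tcf12 start at 0.00. Across 21262 promoter windows, 23.2% were overlapped by a peak in H3.3WT and 26.7% in H3.3K27M, and this share climbed with CpG content. It was 0.385% and 0.506% for ratios under 0.2, and 3.42% and 4.46% between 0.2 and 0.4. Between 0.4 and 0.6 it was 16.8% and 19.4%, and between 0.6 and 0.8 it was 35.9% and 42.2%. It was 49.2% and 56% between 0.8 and 1.0, and 58% and 65.1% at 1.0 or more. The Zbtb33 start was thus among the CpG-rich windows that had no peak, a minority of their band in both lists. Which windows carry a peak was read from the lists and their CpG content from the sequence alone, but windows are not replicates, and no test was made.

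**Figure D4:**
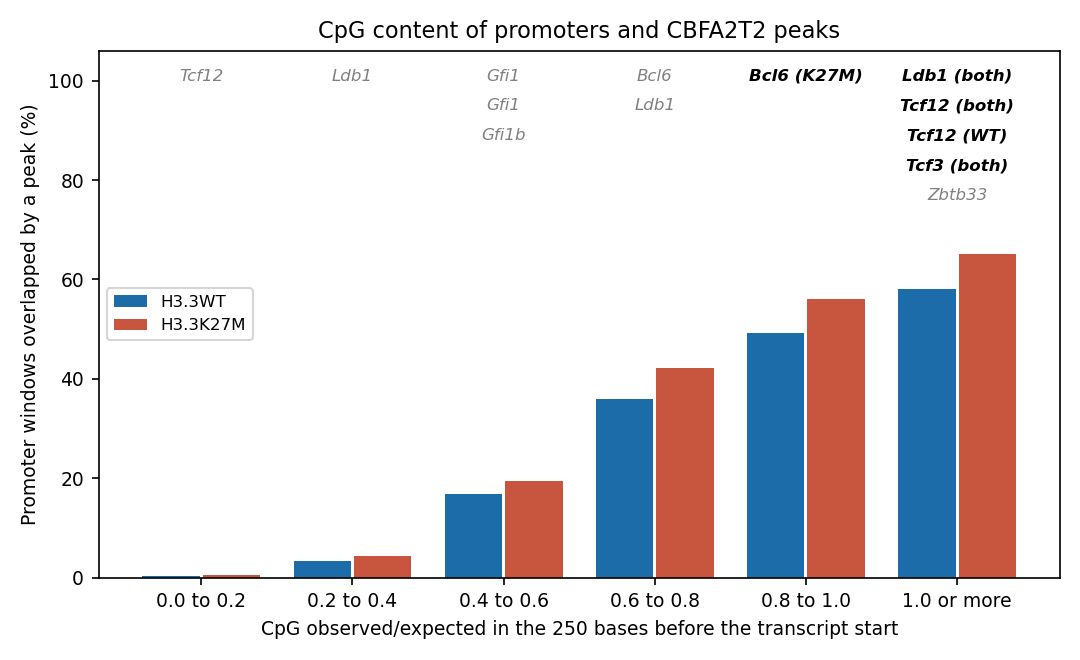
Percentage of RefSeq promoter windows overlapped by a CBFA2T2 peak (bars, H3.3WT in blue and H3.3K27M in red) in bands of the observed over expected CpG ratio, with the windows of the listed genes written above their band, in bold with the list that marks them, or in grey where neither list does. All bold names stand in the 2 right-hand bands, and Zbtb33 is the grey name among them.

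Motifs of the partners were looked for in the same windows on both strands. An E-box, CANNTG, occurred in 8 of the 13 windows, where 62.8% of all promoter windows hold at least 1. It occurred once in the windows shown of Tcf3, Tcf12 and Bcl6 and not in those of Ldb1 and Zbtb33. The matches in the windows shown lie in lower-case bases, outside the overlap of both lists. The Bcl6 match was CACGTG, and the Tcf12 match was of the form CAGCTG, found in 12.1% of windows. The form CAGGTG, found in 16.9% of windows, was in the outer window of Gfi1. The GFI1 core AATC occurred in 9 of the 13 windows, and 67.1% of all windows hold it. A longer GFI1 sequence of 10 letters, in 2.25% of all windows, matched in 1 of the 13, that of the internal Tcf12 start, which had no peak. The Kaiso sequence TCCTGCNA, in 3.94% of windows, was in none of the 13. The other E-box forms are part of CANNTG. A match describes letters and is not a bound site.

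Other genes around these partners were taken from 7 further lists and read against the same backgrounds of 36.1% (H3.3WT) and 40.7% (H3.3K27M). Other factors reported to bind MTG proteins had a peak inside or within 10 kb at 1 of 8 genes (H3.3WT) and 2 of 8 (H3.3K27M). These were Tcf7l2, the Wnt effector, at 4.36 and 5.43 fold, and in H3.3K27M Rbpj, the DNA-binding factor of Notch signalling, at 3.98 fold. Tal1, Lyl1, Lmo2, Gata1, Zfp652 and Runx1 had none in either list. Where a gene had several peaks, the one with the highest −log10 q is given, so the values of the lists can come from different peaks.

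The ID genes, whose products sequester E proteins, had peaks at 2 of 4 genes (H3.3WT) and 3 of 4 (H3.3K27M). Id2 had 5.21 and 9.85 fold, Id1 had 5.31 and 6.32 fold, and Id3 had 6.04 fold in H3.3K27M alone, all of them outside the gene bodies by 1744 to 8360 bp. Tissue-restricted partners of E proteins had peaks at 2 of 10 genes of the H3.3WT list, Twist1 (6.83 fold) and the neurogenic gene Neurog2 (5.23 fold, 4955 bp away), and at 0 of 10 in H3.3K27M. In a list of LDB1 partners that also holds Ldb2, a relative of Ldb1, 6 of 10 genes had a peak in both lists. Ssbp1 had 16.4 and 7.57 fold, Ldb2 11.97 and 7.84 fold, Lmo4 3.10 and 5.77 fold and Ssbp2 4.61 and 4.94 fold.

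Among relatives of the zinc finger partners, other BTB zinc finger genes had a peak inside or within 10 kb at 13 of 14 (H3.3WT) and 14 of 14 (H3.3K27M). Counting only peaks to which they are the closest gene, it was 10 and 11 of 14, beside 29.3% and 33.9% of all protein-coding genes. Zbtb17 (Miz1, a partner of MYC) had 22.4 and 12.8 fold, Zbtb7a 25.3 and 10.2 fold and Zbtb7b, which directs CD4 T cell fate, 15.2 and 10.7 fold. The peak near Zbtb32 (11.9 and 17.6 fold) lay at its neighbour Kmt2b, and that of Zbtb17 also touched Gm42337. Other PRDM genes had 4 of 9 in both lists, Prdm15 at 23.5 and 19.0 fold, Prdm4 at 5.69 and 9.62 fold, Prdm10 at 5.31 and 5.16 fold and Prdm2 at 3.94 and 4.53 fold. Cofactors of the SNAG domain had 4 of 6 (H3.3WT) and 6 of 6 (H3.3K27M). The deacetylase genes Hdac2 had 8.57 and 3.44 fold and Hdac1, whose peak lay closer to Marcksl1, 3.48 and 5.66 fold. The CoREST genes Rcor1 and Rcor2 had 6.67 and 3.35 fold and, in H3.3K27M alone, 6.49 fold. These counts carry no test. The lists are small and were chosen with earlier results of these data known, so the counts do not stand for whole gene families.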

How the data were processed

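CBFA2T2 ChIP-seq peaks of 1 H3.3WT and 1 H3.3K27M library were used, grouped by the titles in the labels. The submitters' processing notes name Trim Galore, MACS2 and the build mm10. Versions, aligner and caller settings are not given in the sources used here. Per the deposited peak names, each list came from a ChIP library against an input. The fold (ratio), −log10 p and −log10 q are the authors' deposited values for a peak. The deposited score is −log10 q times 10 without decimals and was not used, and the summit offset was used as deposited. The smallest −log10 q was 1.33 (H3.3WT) and 1.31 (H3.3K27M), so weaker sites are missing from the lists. A library with more reads can pass more weak sites. Depth is unknown.

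Gene spans and promoters came from RefSeq (GRCm38.p6), which gave no exons here. All 10 symbols were found. A peak counted for a gene if any base lay within 10 kb of its span, and as shared if it overlapped a peak of the other list by at least 1 bp. Coordinates are 1-based. Intervals are exact (Clopper-Pearson). Python 3.11.15, pandas 2.3.3 and SciPy 1.17.1 were used, and the assignment of peaks was tested on simulated positions. The genes and lists were chosen with earlier results of these data known. All 10 genes are named, with the genes closer to their peaks, and, with values, at most 4 genes per further list, those with the highest −log10 q. Genes of one list without a peak are named without values. Alternatives were other windows, peak thresholds, list lengths and overlap criteria.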

Additional observations from a re-analysis of the deposited data

How the results depend on the processing

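No paired analysis was possible because each genotype had 1 library and no test was made. Of 62 alternative values for the counts of genes, peaks and shared peaks, 50 stayed within 1.5 times the reported count. With a window of 25 kb, H3.3WT had 9 peaks at these genes, 8 of them shared. With −log10 q of at least 5 in both lists, 3 H3.3WT peaks were shared and 3 genes were closest to an H3.3K27M peak. The H3.3K27M peaks at the Tcf12 and Ldb1 starts and the H3.3WT peak at the Ldb1 start fell under that threshold. With both lists cut to peaks of at least 5 fold, H3.3WT had 3 peaks, 1 of them shared, and 2 genes closest to a peak. H3.3K27M then had 4 peaks at 3 genes, 1 of them shared, and 2 genes closest to a peak, Zbtb16 and Bcl6. The share of all peaks that are shared at this cut was not computed. With the same number of peaks taken from both lists, H3.3K27M had 7 peaks, 5 of them shared, and 4 genes closest to a peak. Its peak at the Ldb1 start dropped out, so 4 H3.3WT peaks were shared. When 50% of both peaks had to overlap, 3 H3.3WT peaks were shared. The pairs that dropped out overlapped by 348 bp of an H3.3WT peak of 814 bp (Tcf12) and by 150 bp of 446 bp (Ldb1 start). The other changes follow from the peaks kept or, with the wider window, from those added. For single genes, 20 of 140 alternative peak counts moved. Many of the 140 could not move, because every alternative for single genes except the window of 25 kb can only remove peaks. A gene with no peak in a list could therefore change only at 25 kb, as Gfi1b did in H3.3WT (1 peak). The share of 20 in 140 is thus no measure of how stable the counts were for genes that had a peak. The Bcl6 peak of H3.3K27M was kept in every alternative run, with 5.15 fold just over the cut of 5 fold. The nearest H3.3WT peak, 404.7 kb away, lay beyond every window used. No alternative could therefore have given Bcl6 a peak in H3.3WT. Depth is unknown, so a peak missing from a list may lie just under the calling threshold.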
